A study of Saccharomyces cerevisiae with 12 samples.

Results

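The RNA levels of 10 plasma membrane amino acid permeases of baker's yeast were followed in 2 strains that lack a 14-3-3 protein, with and without external potassium. The genes are GAP1, AGP1, BAP2, BAP3, TAT1, TAT2, GNP1, HIP1, CAN1 and DIP5. They were taken by name from a table of 6053 genes, in which each had 1 row, and all 10 passed the filter on low values. The rule uses their names alone, though it was drawn up with earlier results of these data known. In bmh2∆ cells without KCl the RNAs of GAP1, AGP1 and BAP3 were 9.31-fold, 6.92-fold and 3.13-fold lower in group means. They were among 6 permeases that lay lower with no overlap of libraries, as did 20.5% of genes tested. GAP1 and BAP3 passed the test in the fit of all libraries, against 2.63% of genes tested that passed lower. Leaving out most single bmh2∆ libraries left no permease past the threshold. DIP5 RNA stayed between 89.6 and 143.8 RPM in all libraries.

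Amino acid permeases of this family carry amino acids into the cell together with protons. Yeast sets which of them are made by at least a pair of known routes. The SPS sensor of the plasma membrane (Ssy1, Ptr3, Ssy5) detects external amino acids and releases the transcription factors Stp1 and Stp2, which act on genes such as AGP1, BAP2, BAP3, TAT1 and GNP1. Nitrogen catabolite repression works through the GATA factors Gln3 and Gat1, which activate genes such as GAP1 when good nitrogen sources run short. Permease proteins are also sorted and removed from the membrane by ubiquitination, which RNA levels do not show.

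Both strains were made in BY4741, a MATa laboratory strain with the markers his3Δ1, leu2Δ0, met15Δ0 and ura3Δ0, which all cells here therefore share. In bmh1∆ the gene of the major 14-3-3 protein was deleted and in bmh2∆ that of the minor one, each as a single named strain. Cells were grown at 30 °C in Translucent YNB medium with 50 mM KCl and supplements of leucine, histidine, methionine and uracil, washed, and kept for 60 min in the same medium with 50 or 0 mM KCl. Each of the 4 groups of strain and KCl concentration holds 3 libraries. Leucine, histidine and methionine, which several of these permeases transport, were thus supplied to all cells. BY4741 libraries were not used here, so no value gives the level in a strain with both 14-3-3 genes.

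Levels are in RPM, the tags of a gene scaled to a library sum of 1000000. The column names carry no replicate number, and libraries are called here by letter (B50, B0, C50 and so on) or, for the 4 bmh1∆ libraries of sequencing lane 1, L50a (index GGATAT), L50b (CTATAG), L0a (GTCACG) and L0b (TGCACT), with 50 and 0 for mM KCl. The third bmh1∆ library of each group, B50 in lane 7 and B0 in lane 6, and all bmh2∆ libraries came from lanes 5 to 7. The lane 1 libraries and the lettered ones are called the lane groups here, as their names do not say whether they were separate sequencing runs. If the smallest step of the values is taken as 1 read, the depth was 6237952 to 19334173 reads in 10 libraries, and 73863623 in L0a and 107579363 in B0. On the same basis B0 held at least the summed reads of the 7 other lettered libraries in all 6053 genes, and L0a at least those of the 3 other lane 1 libraries in all but 1 gene. The names of these columns also differ from the others by an ellipsis. B0 and L0a may thus hold reads of other libraries of their lane group, for B0 those of bmh2∆ included, and their values may not be those of bmh1∆ at 0 mM KCl alone. This was not settled and bears on every value of B0 and L0a below, and tests of starvation in bmh1∆ are also given without them, with L0b as the sole starved library. BMH2 was between 197 and 505 RPM in bmh1∆ and at most 0.291 RPM in bmh2∆, so the labels of bmh2∆ hold. BMH1 was at 536 to 4170 RPM in the bmh1∆ libraries, with B0 the highest and inside the range of bmh2∆ (4048 to 5391 RPM). According to the supplement of the study these tags lie beyond the deleted coding region, and they then do not check the deletion. The labels do not say whether the libraries of a group came from separate cultures, so the p values measure the spread between these libraries, which may be technical.

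In SAGE-tag sequencing NlaIII cuts cDNA at CATG, the site nearest to the poly(A) tail is kept, and the 17 bases beside it are read. A transcript thus gives 1 tag whatever its length, and RPM of different genes can be set side by side. The coding sequences are also alike in length, from 1773 bp in CAN1 to 1992 bp in GNP1, and each is a single exon. In the S288C reference (build R64) they are GAP1 (YKR039W, chrXI:515063-516871, plus strand), AGP1 (YCL025C, chrIII:76018-77919, minus strand), BAP2 (YBR068C, chrII:373861-375690, minus strand), BAP3 (YDR046C, chrIV:548762-550576, minus strand) and TAT1 (YBR069C, chrII:376574-378433, minus strand). The others are TAT2 (YOL020W, chrXV:286172-287950, plus strand), GNP1 (YDR508C, chrIV:1466453-1468444, minus strand), HIP1 (YGR191W, chrVII:880420-882231, plus strand), CAN1 (YEL063C, chrV:31694-33466, minus strand) and DIP5 (YPL265W, chrXVI:41043-42869, plus strand). BAP2 and TAT1 are neighbours on chromosome II. The build used by the authors is not given in the sources used here.

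Because these permeases are similar proteins, the tags are what tells their RNAs apart. The last CATG site in each coding sequence, with the 17 bases after it, reads as follows from 5′ to 3′ on the strand of the gene, with the NlaIII site in capitals.
GAP1: CATGgggtggtatctgtattt
AGP1: CATGaaagtccaagggagatc
BAP2: CATGgacttccataatgttgt
BAP3: CATGgtttacaaaagagattt
TAT1: CATGgagcttttggattccag
TAT2: CATGgtacgtgagacagttcc
GNP1: CATGgtgttcgtgtggttcct
HIP1: CATGaaagttcaagaaaggtc
CAN1: CATGaaccaaagactttttgg
DIP5: CATGaatgtgtcttcaggatc
Each of these 21-base sequences occurs once in the R64 genome. The closest pair, AGP1 and HIP1, differs at 4 of the 21 bases, and the next closest, AGP1 with DIP5, HIP1 with DIP5 and BAP2 with BAP3, at 9. BAP2, BAP3, TAT2, GNP1 and DIP5 have a further CATG within 200 bases after the stop codon, and which site the authors counted is not given in the sources used here.

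The sequences before the start codon are shown for GAP1, AGP1, CAN1, BAP2 and BAP3, because these hold the matches to the motifs of the GATA factors and of Stp1. Each is the stretch from 440 to 141 bases before the A of the ATG in build R64, 5′ to 3′ on the strand of the gene. Capitals mark matches on either strand. The motif searched for Gln3 and Gat1 was GATAAG. For Stp1 it was the core CGGCTC. For Gcn4, the activator of the general amino acid control, it was TGACTC. No match overlaps a match to another of these motifs. The positions are chrXI:514623-514922 on the plus strand for GAP1, chrIII:78060-78359 on the minus strand for AGP1, chrV:33607-33906 on the minus strand for CAN1, chrII:375831-376130 on the minus strand for BAP2 and chrIV:550717-551016 on the minus strand for BAP3.
GAP1: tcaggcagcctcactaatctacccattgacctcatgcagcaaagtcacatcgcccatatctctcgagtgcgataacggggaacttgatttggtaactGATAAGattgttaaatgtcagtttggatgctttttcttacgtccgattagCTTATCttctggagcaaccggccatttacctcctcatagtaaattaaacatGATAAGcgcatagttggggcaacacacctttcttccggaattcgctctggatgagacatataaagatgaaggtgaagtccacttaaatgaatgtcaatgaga
AGP1: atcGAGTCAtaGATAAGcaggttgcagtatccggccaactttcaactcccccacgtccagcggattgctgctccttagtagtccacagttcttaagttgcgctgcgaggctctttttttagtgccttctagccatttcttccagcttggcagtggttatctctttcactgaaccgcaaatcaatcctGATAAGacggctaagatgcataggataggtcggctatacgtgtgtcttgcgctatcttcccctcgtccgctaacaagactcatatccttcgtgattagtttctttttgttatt
CAN1: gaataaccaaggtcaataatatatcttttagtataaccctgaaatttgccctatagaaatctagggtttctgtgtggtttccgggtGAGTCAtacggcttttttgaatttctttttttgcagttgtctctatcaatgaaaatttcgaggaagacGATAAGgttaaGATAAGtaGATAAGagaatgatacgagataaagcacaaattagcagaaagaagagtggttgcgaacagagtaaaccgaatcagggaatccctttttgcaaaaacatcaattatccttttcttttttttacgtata
BAP2: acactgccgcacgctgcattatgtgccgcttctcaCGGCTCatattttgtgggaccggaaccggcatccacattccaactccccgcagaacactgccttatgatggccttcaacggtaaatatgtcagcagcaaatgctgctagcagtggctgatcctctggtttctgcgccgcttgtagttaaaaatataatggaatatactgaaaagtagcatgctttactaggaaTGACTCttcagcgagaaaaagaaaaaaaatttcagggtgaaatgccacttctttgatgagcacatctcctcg
BAP3: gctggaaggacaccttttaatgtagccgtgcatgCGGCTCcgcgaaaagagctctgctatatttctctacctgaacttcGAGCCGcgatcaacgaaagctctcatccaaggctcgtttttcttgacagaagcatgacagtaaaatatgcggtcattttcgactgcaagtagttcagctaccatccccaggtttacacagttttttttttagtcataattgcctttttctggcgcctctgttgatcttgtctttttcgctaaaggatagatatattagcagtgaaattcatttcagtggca
Over the whole 600 bases before the start codon GATAAG matched 5 times in GAP1, 3 times in CAN1 and 2 times in AGP1, and not in the 7 others. Of 6005 genes, 26.8% had at least 1 match in a window of this length, 4.91% at least 2 and 0.699% at least 3. CGGCTC matched in BAP3 (2 times) and BAP2 (once), against 8.01% of genes with a match and 0.383% with 2 or more. TGACTC matched in AGP1, BAP2, CAN1 and HIP1, against 15.3% of genes. TAT1, TAT2, GNP1 and DIP5 had no match to these letters in the window. A match is a string of letters and not a measured binding site.

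**Figure D1:**
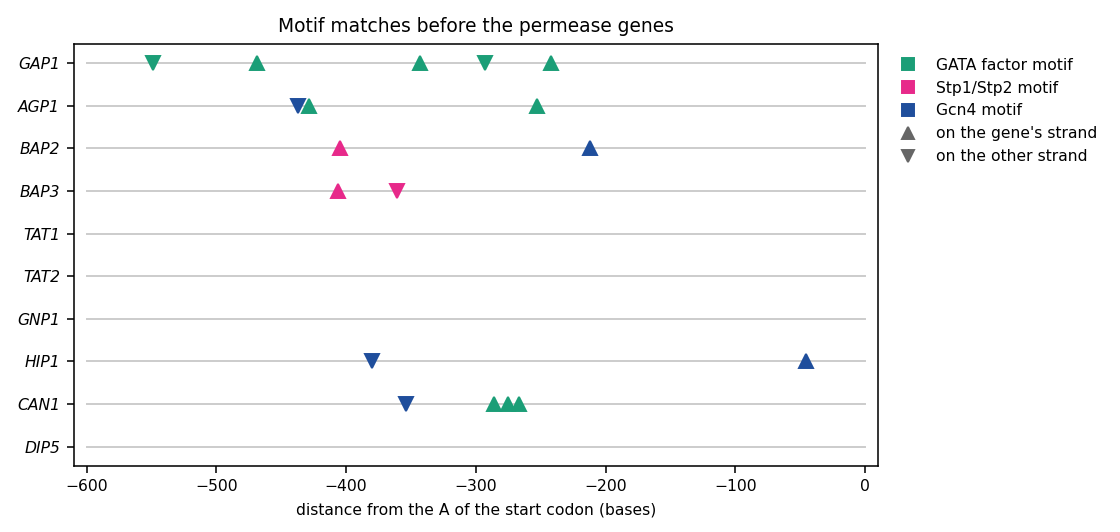
Positions of matches to the motifs of GATA factors, Stp1/Stp2 and Gcn4 in the 600 bases before the start codon of each permease gene (x axis, bases from the A of the start codon). Upward triangles lie on the strand of the gene and downward triangles on the other. The 3 GATA factor matches of CAN1 lie between 286 and 267 bases before the start codon, while the 5 of GAP1 spread from 549 to 242.

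GNP1, a permease of glutamine and other neutral amino acids, gave the most abundant RNA of the family. Its level was the highest of the 10 in 11 of 12 libraries, the exception being L50a, where BAP2 was higher. Summed over the 10 genes, permease RNA came to 2420, 3494 and 2215 RPM in L50a, B50 and L50b, and to 1634, 1609 and 850.3 RPM in L0a, B0 and L0b. In bmh2∆ the sum was 2254, 2061 and 1959 RPM at 50 mM KCl (C50, D50, E50) and 819, 782 and 951 RPM at 0 mM KCl (C0, D0, E0). The ranges of the bmh2∆ groups did not overlap, nor did those of bmh1∆. In bmh1∆ no single permease separated in this way, and L0a and B0 carry the doubt stated above. How often sums over other genes separate was not tested. The make-up differed as well. GNP1 gave 54.5% to 64.9% of the sum in the bmh2∆ libraries and 62.0% to 78.2% in B0 and B50, but 24.6% to 39.7% in the 4 lane 1 libraries, where BAP2 gave 21.9% to 29.6%.

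**Figure D2:**
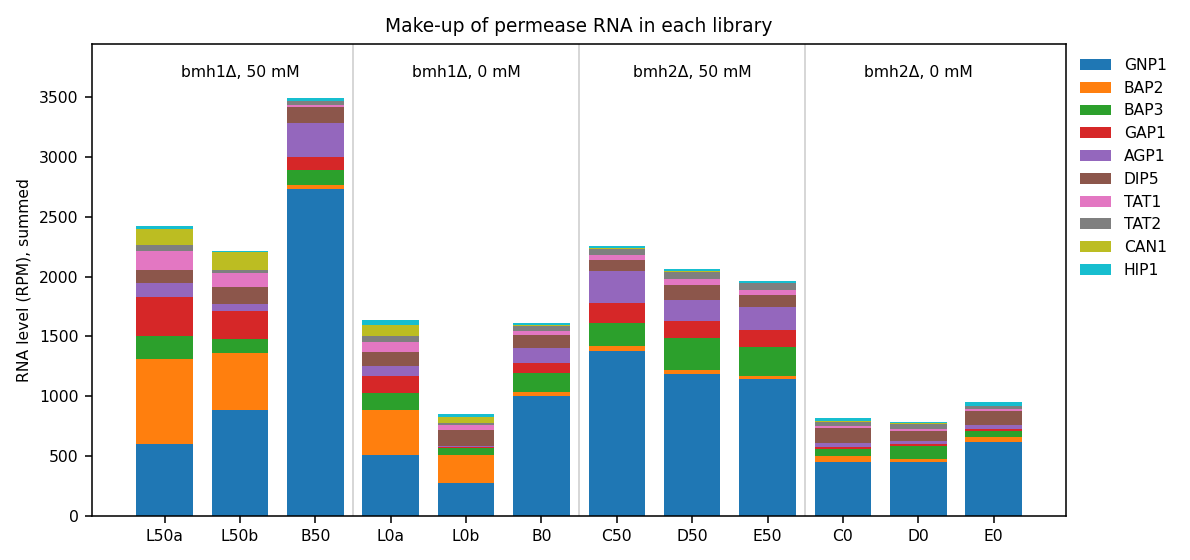
Level of the 10 permease RNAs in each library, stacked (y axis, RPM; x axis, libraries by group). GNP1 fills most of each bar except in the lane 1 libraries of bmh1∆ (L50a, L50b, L0a, L0b), where BAP2 and CAN1 take a share of their own, and the bmh2∆ bars are lower at 0 mM KCl (782 to 951 RPM) than at 50 mM KCl (1959 to 2254 RPM).

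The lowest levels were those of HIP1, the histidine permease, at 10.2 to 36.1 RPM, and, outside lane 1, of CAN1, the arginine permease, at 1.10 to 7.32 RPM. Libraries of a group differed little in bmh2∆ and much in bmh1∆. The median SD of log2(RPM + 1) over the 10 members was 0.209 and 0.392 in bmh2∆ at 50 and 0 mM KCl, and 0.972 and 0.894 in bmh1∆. Over all 5278 genes tested these medians were 0.244, 0.320, 0.745 and 0.509. The larger spread in bmh1∆ thus held for genes in general.

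**Figure D3:**
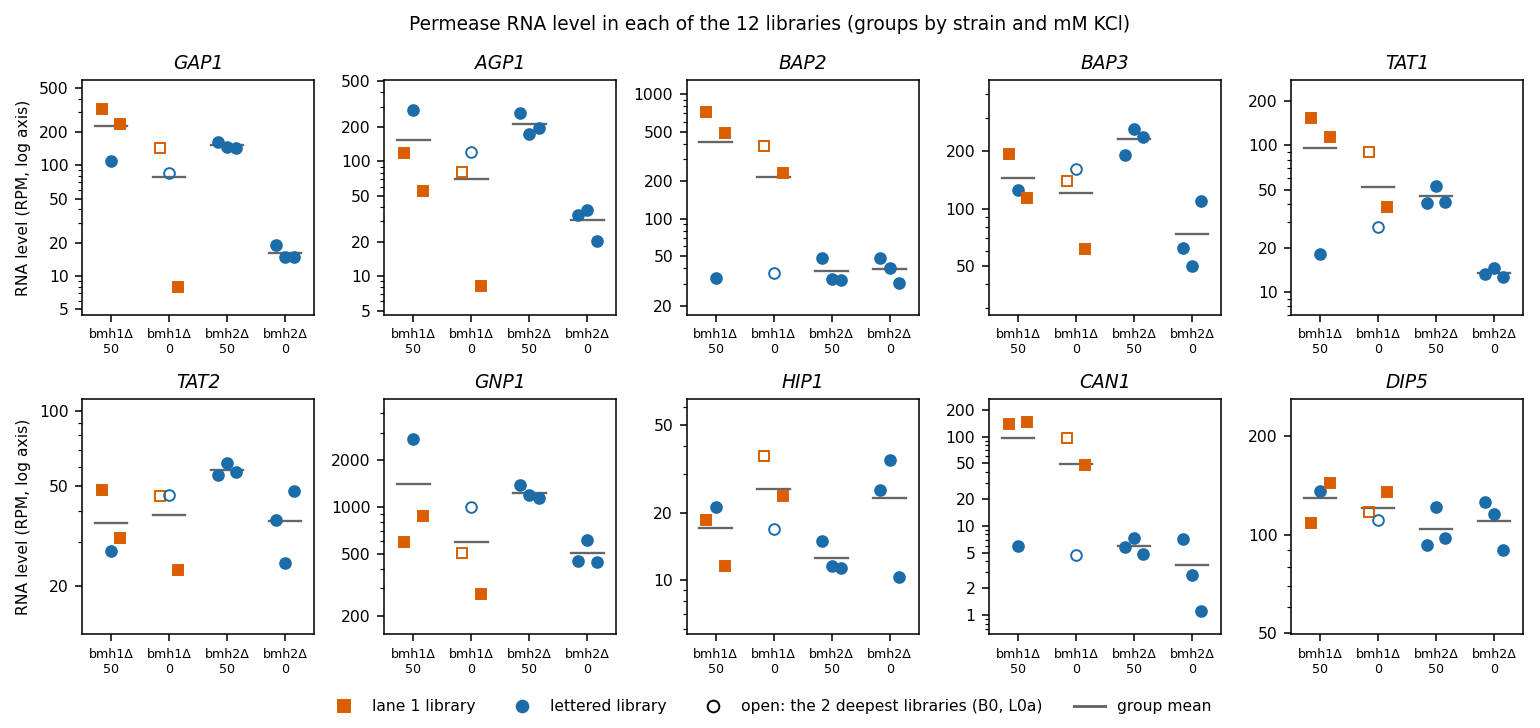
RNA level of each permease in each of the 12 libraries (y axis, RPM on a log axis; x axis, strain and mM KCl). Squares are lane 1 libraries, circles lettered libraries, open symbols the deepest libraries B0 and L0a, and lines group means. GAP1 and AGP1 fall at 0 mM KCl in all bmh2∆ libraries and in L0b, whereas BAP2 and CAN1 separate by lane group.

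In bmh2∆ the RNAs of GAP1 and BAP3 fell on potassium starvation. All 12 libraries entered 1 limma fit of log2(RPM + 1), in which the 4 groups shared their estimate of the spread, and a gene passed at an adjusted p under 0.05 over all genes tested. These 2 permeases passed, both lower, against 5.53% of the 5278 genes tested in either direction and 2.63% lower. In 6 of the 10 genes the 3 libraries at 0 mM KCl all lay below the 3 at 50 mM KCl, which was so for 20.5% of genes tested. The median log2 fold change of the 10 was -1.04, beside 0.05 over all genes tested.

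GAP1, the general amino acid permease with the broadest range of substrates, was at 164, 147 and 143 RPM in C50, D50 and E50. Without KCl it was at 19.2, 14.8 and 14.8 RPM in C0, D0 and E0. The groups lie far apart. Of the starved libraries C0 shared lane 5 with those at 50 mM KCl, and D0 and E0 came from lane 6. The log2 fold change was -3.15 (SE 0.816, adjusted p = 0.0485 by limma), and only 34 of the 5278 genes tested changed by more on this scale.

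AGP1, a permease of many amino acids with lower affinity, was at 265, 175 and 194 RPM in C50, D50 and E50 and at 34.0, 20.3 and 37.4 RPM in C0, D0 and E0. These groups did not overlap either, and the means differed 6.92-fold. The log2 fold change of -2.77 (SE 0.853) did not pass, with an adjusted p of 0.0884 by limma.

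BAP3, a permease of branched-chain amino acids, cysteine and others, was at 192, 264 and 239 RPM in C50, D50 and E50 and at 62.3, 109.5 and 49.6 RPM in C0, D0 and E0. Here D0 was less low than the others. The log2 fold change was -1.70 (SE 0.419, adjusted p = 0.0399 by limma).

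BAP2, which transports leucine, isoleucine and valine and is the closest relative of BAP3, gave another picture. It was at 48.1, 33.2 and 32.5 RPM at 50 mM KCl and at 48.5, 30.6 and 40.0 RPM at 0 mM KCl in the same order of letters. The groups overlap almost fully, and the log2 fold change of 0.06 had a 95% interval of -2.26 to 2.39. This interval uses the spread shared over the 4 groups. The SD of log2(RPM + 1) of BAP2 was 2.38 and 1.76 in bmh1∆ at 50 and 0 mM KCl. In bmh2∆ it was 0.312 and 0.326. With the lane group as a term the interval was -0.62 to 0.75.

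Of the permeases of aromatic amino acids, TAT1 (tyrosine) was at 40.7, 53.1 and 41.0 RPM in C50, D50 and E50 and at 13.3, 12.6 and 14.6 RPM in C0, D0 and E0. Its groups did not overlap, with a 3.34-fold difference of means, yet the log2 fold change of -1.66 (SE 0.677) had an adjusted p of 0.200 by limma. TAT2 (tryptophan) was at 55.6, 61.8 and 56.9 RPM and at 36.6, 47.9 and 24.6 RPM, a difference of 1.60-fold with an adjusted p of 0.326. GNP1 was at 1374, 1187 and 1140 RPM and at 446, 445 and 617 RPM, which is 2.45-fold lower in means without overlap, with an adjusted p of 0.231. TAT1, TAT2 and GNP1 were thus lower in every library without KCl but did not pass in this fit.

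The others gave no separation. HIP1 was at 14.9, 11.5 and 11.3 RPM with KCl and at 25.4, 10.2 and 34.5 RPM without it (C, D, E), so that D0 went against C0 and E0, and the adjusted p was 0.464. CAN1 stayed below 10 RPM throughout, at 5.81, 7.32 and 4.83 RPM and at 7.12, 1.10 and 2.79 RPM. DIP5, the permease of glutamate and aspartate, was at 93.1, 121.7 and 97.6 RPM with KCl and at 125.9, 89.6 and 115.6 RPM without it. The log2 fold change of DIP5 was 0.08 with a 95% interval of -0.47 to 0.63.

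How many permeases passed in bmh2∆ depended on the other libraries in the fit. With the lane group as a term 5 of 10 passed, all lower, namely GAP1, AGP1, BAP3, TAT1 and GNP1, with adjusted p between 0.00702 and 0.0117 and against 9.49% of genes tested that passed lower. The fold changes were the same in this fit and the SE smaller, for example 0.287 in place of 0.564 for GNP1. Without B0 and L0a GAP1, AGP1 and BAP3 passed (adjusted p = 0.00241, 0.0191 and 0.0262 by limma), against 3.35% of genes tested that passed lower. Leaving out any of C50, D50, E50, C0 or E0 from the fit without that term left 0 permeases and 28 to 77 genes in all past the threshold, and leaving out D0 left BAP3 among 121 genes. Without L50a or L50b BAP3 alone passed, without L0a GAP1 alone, and without B50 GAP1, AGP1, BAP3 and TAT1 did, against 6.1% of genes tested that passed lower in that fit.

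In bmh1∆ no permease passed for the same comparison (limma, 0 of 10), against 0.966% of genes tested, all of which rose. GAP1 alone had an unadjusted p under 0.05. The median log2 fold change was -0.60 over the 10 genes beside 0.14 over all genes tested, and -0.71 beside 0.18 without B0 and L0a. No permease had libraries at 0 mM KCl that all lay below or all above those at 50 mM KCl, which was so for 3.16% and 9.44% of genes tested. L0a and B0, with the doubt stated above, enter this comparison. In L0b alone GAP1, AGP1, BAP3, TAT2 and GNP1 lay below every library at 50 mM KCl and HIP1 above, while BAP2, TAT1, CAN1 and DIP5 lay between. How often other genes did so in L0b was not counted.

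GAP1 was at 326, 109.8 and 238 RPM in L50a, B50 and L50b and at 142, 84.4 and 8.04 RPM in L0a, B0 and L0b. L0b is the low library here, at the level of bmh2∆ without KCl or below. The log2 fold change over all libraries was -2.10 (SE 0.816, adjusted p = 0.312 by limma). Within lane 1, L0b differed from the mean of L50a and L50b by -4.95 on the log2 scale. B0, with the doubt stated above, differed from B50 by -0.38.

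AGP1 showed the same low library, at 119.3, 284 and 55.1 RPM in L50a, B50 and L50b and at 81.5, 121.5 and 8.26 RPM in L0a, B0 and L0b. With B0 and L0a left out, so that L0b stood alone for bmh1∆ at 0 mM KCl and was taken to vary like the other groups, GAP1 passed with a log2 fold change of -4.51 (adjusted p = 0.00580) and AGP1 with -3.75 (adjusted p = 0.0429 by limma). In that fit 1.08% of genes tested passed lower. Both calls rest on 1 starved library, L0b of lane 1, which that fit sets against B50 too, and B50 had the highest AGP1 level. Within lane 1 AGP1 in L0b differed from the mean of L50a and L50b by -3.15 on the log2 scale.

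GNP1 was at 596, 2732 and 880 RPM in L50a, B50 and L50b and at 506, 997 and 274 RPM in L0a, B0 and L0b. On the log2 scale L0b differed from the mean of L50a and L50b by -1.40, and B0 from B50 by -1.45. With the lane group as a term GNP1 was the permease that passed, at a log2 fold change of -1.12 (SE 0.287, adjusted p = 0.0292 by limma), against 1.17% of genes tested that passed lower. B0 and L0a enter this call, and no result of the fit with that term is given without them. Without that term the adjusted p was 0.491 by limma. With B0 and L0a left out as well the log2 fold change was -2.04, where L0b alone is set against B50 too.

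Levels of BAP2 in bmh1∆ were 716, 33.3 and 484 RPM in L50a, B50 and L50b and 381, 36.8 and 232 RPM in L0a, B0 and L0b. TAT1 was at 154.8, 18.3 and 113.7 RPM with KCl and at 89.9, 27.9 and 37.9 RPM without it, and CAN1 at 139.5, 5.93 and 144.7 RPM and at 95.3, 4.73 and 47.6 RPM. In these genes B50 lay far below L50a and L50b, and B0 below L0a and L0b. The log2 difference of L0b from the mean of L50a and L50b was -1.34 for BAP2, -1.78 for TAT1 and -1.56 for CAN1, while from B50 to B0 the differences were 0.14, 0.58 and -0.27. Without B0 and L0a the log2 fold changes were 0.025 for BAP2, -0.85 for TAT1 and -0.10 for CAN1, with adjusted p of 0.687 or more by limma, as that fit sets L0b against B50 too.

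The remaining members did not separate by KCl over all bmh1∆ libraries, with L0a and B0 included. BAP3 was at 194, 125.7 and 113.2 RPM and at 139.9, 163 and 61.5 RPM in the same order of libraries. TAT2 was at 48.3, 27.6 and 31.1 RPM and at 45.7, 46.1 and 23.1 RPM, and HIP1 at 18.6, 21.3 and 11.5 RPM and at 36.1, 16.8 and 23.7 RPM. The log2 difference of L0b from the mean of L50a and L50b was -1.26 for BAP3, -0.72 for TAT2 and 0.66 for HIP1. From B50 to B0, with the doubt stated above, the differences were 0.37, 0.72 and -0.32. DIP5 was the most even, at 108.8, 136 and 143.8 RPM with KCl and 117.1, 110.8 and 134.7 RPM without it, and its log2 fold change of -0.09 had a 95% interval of -0.65 to 0.46.

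**Figure D4:**
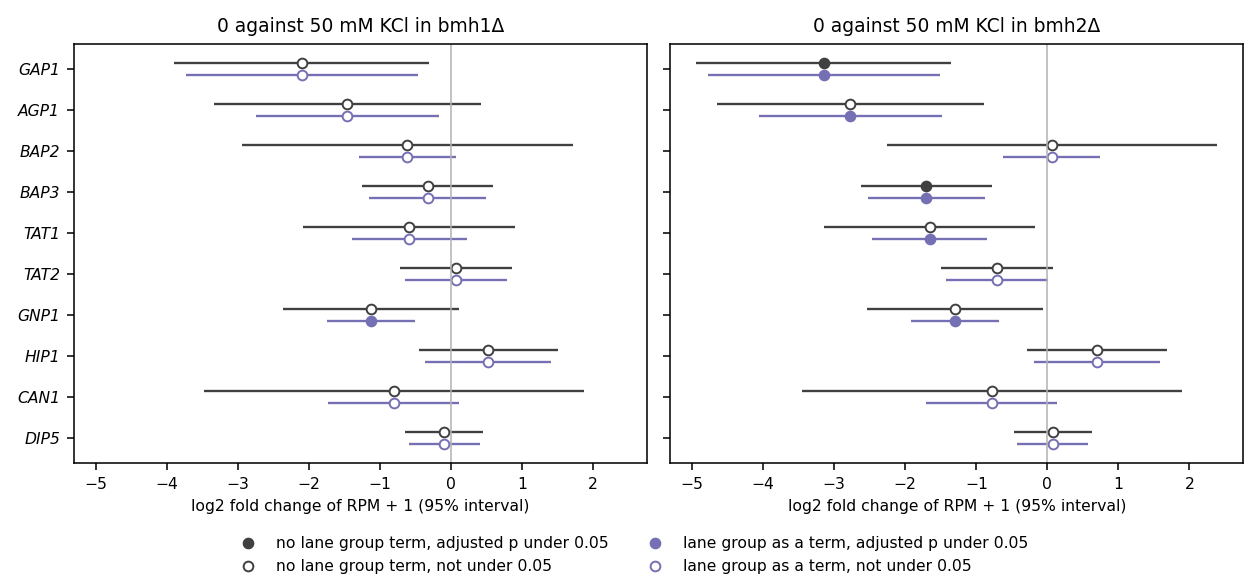
Change of each permease from 50 to 0 mM KCl in bmh1∆ (left) and bmh2∆ (right), as log2 fold change of RPM + 1 on the x axis with its 95% interval. Black is the fit without and purple the fit with the lane group as a term, and filled symbols passed at an adjusted p under 0.05. In bmh2∆ GAP1 and BAP3 passed without that term and 5 permeases with it, while in bmh1∆ GNP1 passed and only with it.

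Whether the response differed between the strains was tested as an interaction. No permease passed, nor did any of the 5278 genes tested (limma, 0 called, 169 with an unadjusted p under 0.05, against a background of 0% called). BAP3 was the permease with an unadjusted p under 0.05. Its difference of responses, bmh2∆ minus bmh1∆, was -1.38 (95% interval -2.68 to -0.08, unadjusted p = 0.0398 and adjusted p = 0.993 by limma). The difference for GAP1 was -1.05 with a wide interval of -3.59 to 1.48, and with B0 and L0a left out it was 1.36, while that of BAP3 was then -0.53. Within the lettered libraries alone GAP1 (-2.77, adjusted p = 0.0224 by limma) and TAT1 passed, against 3.11% of genes tested that passed lower. There the bmh1∆ response is B0 minus B50 with the spread taken from bmh2∆, and B0 may hold reads of the bmh2∆ libraries it is compared with. A stronger response in bmh2∆ was therefore not shown over all libraries.

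Between the strains no permease passed at 50 mM KCl (0.0568% of genes tested did) or at 0 mM KCl (0.0189%). At 50 mM KCl 2 permeases had an unadjusted p under 0.05, BAP2 with a log2 difference, bmh2∆ minus bmh1∆, of -2.58 (SE 1.06, adjusted p = 0.260) and CAN1 with -2.92 (SE 1.22, adjusted p = 0.267 by limma). At 0 mM KCl they were TAT1 with -1.69 (SE 0.677) and CAN1 with -2.90 (SE 1.22), both at an adjusted p of 0.395. Without L0b GAP1 passed there as lower in bmh2∆, against 0.417% of genes tested that passed lower. That call sets bmh2∆ (14.8 to 19.2 RPM) against L0a and B0 alone (142 and 84.4 RPM), which carry the doubt stated above. L0b was at 8.04 RPM, below all 3 bmh2∆ libraries. TAT2 at 50 mM KCl was higher in the 3 bmh2∆ libraries than in the 3 of bmh1∆, which was so for 10.7% of genes tested, and TAT1 at 0 mM KCl was lower in all of bmh2∆, as were 11.8%.

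BAP2 and CAN1 also differed between the lane groups. In B50, the lettered bmh1∆ library of this group, BAP2 (33.3 RPM) lay inside the range of bmh2∆ at 50 mM KCl (32.5 to 48.1 RPM), and CAN1 (5.93 RPM) did too (4.83 to 7.32 RPM). With the lane group as a term the difference at 50 mM KCl was -0.22 for BAP2 and -0.27 for CAN1. The lane group coefficient of that fit comes from bmh1∆ alone, with B50 and B0 as its lettered libraries. As B0 may hold reads of bmh2∆, these values do not show that the strains were alike. With B50 left out, BAP2, TAT1 and CAN1 passed as lower in bmh2∆, against 14.1% of genes tested. As 2 of 3 bmh1∆ libraries in each group and no bmh2∆ library came from lane 1, strain and lane group cannot be told apart in those libraries.

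The lane groups were compared within bmh1∆, as the lane 1 minus the lettered coefficient of that fit, to which B0 and L0a contribute. Of all genes tested 58.3% passed, and 5 of the 10 permeases, so the share of permeases was near the background. Of these 3 were higher in lane 1, as were 36.1% of genes tested, and 2 lower, as were 22.2%. BAP2 was higher in lane 1 by 3.54 on the log2 scale (SE 0.336, adjusted p = 5.33e-06), CAN1 by 3.97 (SE 0.452, adjusted p = 2.05e-05) and TAT1 by 1.92 (SE 0.397, adjusted p = 0.00142 by limma). GNP1 with -1.67 (SE 0.305, adjusted p = 6.22e-04) and AGP1 with -1.97 (SE 0.634, adjusted p = 0.0177 by limma) were lower. At 50 mM KCl the lane 1 mean of BAP2 was 18.0-fold above B50 and that of CAN1 24.0-fold, while GNP1 was 3.70-fold and AGP1 3.26-fold higher in B50. Without B50 the permeases past the threshold were BAP2, CAN1 and GNP1, among 1288 genes in all, and without B0 and L0a they were the same 5 and GAP1, among 2923.

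BAP2 and CAN1 were higher in each of the 4 lane 1 libraries than in any of the 8 lettered ones, bmh2∆ included, as were 22.0% of genes tested. BAP2 was at 232 RPM or more in the former and at 48.5 RPM or less in the latter, and CAN1 at 47.6 RPM or more and 7.32 RPM or less. GAP1, BAP3, TAT2, HIP1 and DIP5 did not pass. Their coefficients lay between -0.28 (BAP3) and 0.12 (HIP1), though that of GAP1, 0.04, had a 95% interval of -1.69 to 1.77. What differed between the lane groups besides the lane is not given in the sources used here and was not tested.

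**Figure D5:**
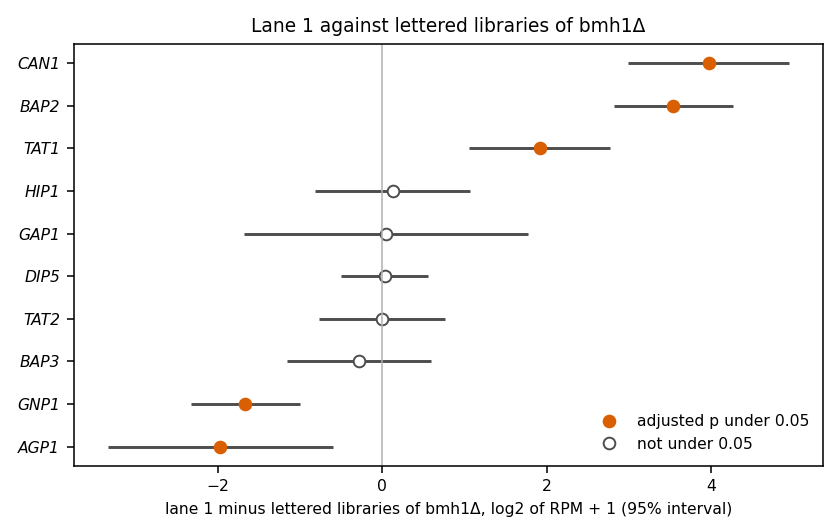
Difference between the lane 1 and the lettered libraries of bmh1∆ for each permease (x axis, log2 of RPM + 1, with the 95% interval). Filled symbols passed at an adjusted p under 0.05. CAN1, BAP2 and TAT1 were higher in lane 1 and GNP1 and AGP1 lower, while the other 5 lay near 0.

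Regulators and other transporters were described from 7 lists. In bmh1∆ none of their 90 tested genes passed for starvation without the lane group term. In bmh2∆ 1 was higher and 4 were lower, against the 5.53% of genes tested that passed in either direction, so these counts are near the background. By list, 0 of 12 tested genes of the SPS pathway, 0 of 20 of permease export, sorting and ubiquitination, 0 of 11 vacuolar amino acid transporters and 0 of 10 regulators of general amino acid control passed. Of the regulators of nitrogen catabolite repression 1 of 10 passed. This was GAT1, a GATA factor gene, which was at 119.5, 130.0 and 136.2 RPM in C50, D50 and E50 and at 43.1, 46.3 and 46.2 RPM in C0, D0 and E0. It fell by 1.49 on the log2 scale (SE 0.331, adjusted p = 0.0265 by limma).

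Of 13 tested other transporters of amino acids, GABA, choline and peptides 2 passed, both lower, against 2.63% of genes tested that passed lower. They were OPT2, an oligopeptide transporter family gene, with -1.81 (adjusted p = 0.0343) and PTR2, the di- and tripeptide transporter, with -1.29 (adjusted p = 0.0442 by limma). Of 14 tested genes for the uptake and breakdown of poor nitrogen sources 2 passed and in opposite directions, against 5.53% of genes tested in either direction. DUR1,2, the urea amidolyase, fell by 1.55 on the log2 scale (adjusted p = 0.0353), and CAR2, the ornithine transaminase of arginine breakdown, rose by 2.23 (adjusted p = 0.00452 by limma). CAR2 was at 26.7, 17.6 and 18.6 RPM with KCl and at 104.5, 89.5 and 108.0 RPM without it in C, D and E. The genes of this list thus did not move in 1 direction. With the lane group as a term 13 list genes rose and 11 fell in bmh2∆, against 10.6% and 9.49% of genes tested. Those that rose were 6 of 20 of permease export, sorting and ubiquitination, 3 of 14 of nitrogen uptake and breakdown, 2 of 12 of the SPS pathway, 1 of 13 other transporters and 1 of 10 nitrogen regulators. Those that fell were 4 of 13 other transporters, 3 of 11 vacuolar transporters, 3 of 14 of nitrogen uptake and breakdown and 1 of 10 nitrogen regulators. In bmh1∆ 8 of the 90 rose and 3 fell in that fit, against 7.54% and 1.17% of genes tested.

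Across the 12 libraries the closest pair of permeases was BAP2 and CAN1 (Pearson r = 0.971 of log2(RPM + 1)), followed by AGP1 and GNP1 (r = 0.883). The most opposed were TAT2 and DIP5 (r = -0.663). For the 3 permeases with the highest mean level the tested genes with the most similar profile were FTR1, YDL211C and DCG1 for GNP1 (r of 0.960 to 0.961), SKY1, SNF2 and ICT1 for BAP2 (0.987 to 0.990) and LOC1, GAS3 and MTR3 for BAP3 (0.976 to 0.987). These values describe 12 points that share strain, KCl, lane and depth, and with 5278 genes to choose from values of this size are selected to be high.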

How the data were processed

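SAGE-tag sequencing was done on both deletion strains after 60 min with 50 or 0 mM KCl. The authors deposited RPM values, made from trimmed reads as tag counts per annotated gene according to the column names. Each library sums to 1000000 RPM. For this step no software, build or annotation is given in the sources used here. The columns were grouped by the strain and KCl concentration in the column names, which hold no replicate number, and 0 columns were left out.

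As RPM are not counts, limma 3.58.1 in R 4.3.3 was used on log2(RPM + 1), so that fold changes of low genes are understated. Tested were the 5278 of 6053 genes that reached 3 RPM in 3 or more libraries, with trend and robust on, two-sided, and Benjamini-Hochberg adjustment over all of them. With 3 libraries against 3 an exact permutation test cannot go below p = 0.1, so none was run. Depth was read from the smallest step of the values, 6237952 to 107579363 reads if a step is 1 read, which is not claimed to give counts. The precision of single values is limited by counting error at this depth and is not given as an interval.

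The permeases and gene lists were chosen with earlier results of these data known. Named are the 10 permeases, list genes that passed (up to 4 per list and comparison), BMH1 and BMH2, and the 3 nearest profiles of the 3 most abundant permeases. The tests were tried on simulated data. Alternatives were other pseudocounts, filters and scalings, limma without trend and robust, the compared groups alone, the lane group or the library letter as a term, and libraries left out. Sequences came from the RefSeq S288C genome (build R64) with Python 3.11.15, and figures from matplotlib 3.10.9.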

Additional observations from a re-analysis of the deposited data

How the results depend on the processing

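The number of permeases that passed for starvation in bmh2∆ (2 with all libraries) was 1 with a pseudocount of 0.25 RPM, without a filter and with a filter of 10 RPM, in each case BAP3. These fits called 293, 310 and 249 genes in all, beside 292 in the fit of all libraries. It was 5 with the compared groups alone, with the lane group as a term, in the lettered libraries alone and without B50 and B0, each time GAP1, AGP1, BAP3, TAT1 and GNP1. With the compared groups alone 1263 genes passed in all, with the lane group as a term 1062, and without B50 and B0 1192. Leaving out each library in turn gave 0 to 4 permeases, among 28 to 655 genes in all. In bmh1∆ the number (0) became 2 without B0 and L0a and 1 with the lane group as a term. For the interaction (0) it was 2 in the lettered libraries alone. Between strains at 50 mM KCl (0) it was 2 in the lettered libraries alone, 3 without B50 and B0, and 0 to 3 with each library left out. At 0 mM KCl (0) it was 3 without B50 and B0, where strain and lane group again cannot be told apart, and 0 to 1 with each library left out. The 1 was GAP1 without L0b, where L0a and B0 alone stood for bmh1∆. The count of permeases that differed by lane group (5) was 3 to 6 with each library left out, with 3 when B50 was. The cause of these differences was not tested.

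Of single log2 fold changes, reported for the permeases, 14 of 724 changed sign, none of them past the threshold with either sign. BAP2 in bmh1∆ without KCl was 0.025 without B0 and L0a and 0.14 in the lettered libraries alone, and -1.98 to 0.38 with each library left out. TAT1 there was 0.58 in the lettered libraries alone and CAN1 was -2.26 to 0.39 with each library left out. In bmh2∆ BAP2 was -0.089 to 0.24 and DIP5 -0.023 to 0.22 with each library left out. The difference of responses of GAP1 was 1.36 without B0 and L0a. Between strains BAP2 was 0.16 at 50 mM KCl and 0.082 at 0 mM KCl in the lettered libraries alone, and 0.46 at 0 mM KCl with the lane group as a term. The other values kept their direction, and 657 of 724 also their side of the threshold.

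A fit with the library letter as a replicate block, lane 1 libraries counting as 1 block, was also run. In that fit 5 permeases passed for starvation in bmh2∆, among 946 genes in all. For bmh1∆ 0 permeases passed, among 311 genes in all, and for the interaction 0 permeases and 0 genes did. The column names carry no replicate number, and libraries of bmh2∆ with the same letter did not all deviate together (r across genes 0.07 for C, 0.24 for D and -0.29 for E), so the letters were not taken to pair the samples. The fits with lettered libraries alone, without B50 and B0, and of the lane groups themselves were added after the data were seen. A planned count test on recovered reads was not run, because the values are whole multiples of a step smaller than the smallest value above 0, and a step could not be shown to be 1 read. Depth limits CAN1 in the lettered libraries, at 1.10 to 7.32 RPM, more than the other permeases.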
